A study of Solanum tuberosum with 136 samples.

Results

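In the genes described here, the mean shares of the transcripts differed between the primary bud and the flesh of stored potato tubers at the start of storage. The genes were chosen from the deposited table of counts per transcript. For each gene, the share of a transcript was its count over the summed count of the gene, averaged over the 4 libraries of a group. Genes were eligible with 2 or more transcripts and a mean gene count of at least 200 in both week 0 groups, which left 4213 of the 32916 genes in the table. The score of a gene was the largest change in the share of any of its transcripts between bud and flesh at week 0. Scores of at least 20 percentage points were found in 596 genes, and the 150 highest make up the set. The week 0 libraries of both tissues therefore chose the set, so their values are given as a description and were not tested.

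RNA-seq libraries came from tubers of the cultivar Russet Burbank (Solanum tuberosum L.), and each group held 4 libraries of either the primary bud, from which the sprout grows, or the flesh, the storage tissue. Control tubers were sampled at storage weeks 0, 3, 6, 9, 12, 15, 16, 17 and 18. Tubers kept under 10 ppm ethylene, a gaseous plant hormone used in stores to hold back sprouting, were sampled at weeks 3, 6, 9, 12 and 15, and tubers taken out of ethylene at week 15 were sampled 1, 2 and 3 weeks later, at weeks 16, 17 and 18. All 34 groups share the cultivar, and the control groups differ from the others in ethylene only, as far as the labels say. Whether libraries of 1 group stem from different tubers is not in the labels, so the p-values cover only how these libraries differ among themselves, and part of that may be technical. The deposited IDs matched no table of gene names at hand, so genes are printed by ID, no role is given to them and the tissue labels were not checked against marker genes.

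A gene can give several transcripts when its introns are removed in different ways or when transcription starts or ends at different places. The transcripts can encode different proteins, or carry an early stop that sends them to decay, so a tissue can alter what a gene makes without altering how much it is transcribed. In plants a retained intron is a common form of such variation. The bud holds a meristem that is dormant after harvest and later grows out, while the flesh consists largely of cells that store starch. The files give no exon structure, so the kind of difference between the transcripts of a gene cannot be named here.

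For each gene the transcript whose share at week 0 was most above that in flesh is called the bud transcript, and its share is given in percent of the gene's counts. In Soltu.DM.10G002820, the gene with the highest score, Soltu.DM.10G002820.1 held 100% of the counts in each of the 4 bud libraries at week 0 and was listed at 0 in each of the 4 flesh libraries. The gene had 1601 to 2161 counts in the bud libraries, which held 42.7 M to 45.5 M counts in total. It had 501 to 883 in the flesh libraries, which held 25.5 M to 29.9 M. In counts scaled to equal library size (CPM), the gene stood at 43 ± 4.95 in bud and 25.8 ± 4.87 in flesh (mean ± SD, n = 4). In Soltu.DM.08G026660 the bud transcript held 92.8%, 80.3%, 75.1% and 100% of the counts in the bud libraries and was listed at 0 in all 4 flesh libraries. In Soltu.DM.02G005200 it held 100%, 100%, 100% and 43.7% in bud, against 0, 16.9%, 0 and 0 in flesh. In Soltu.DM.03G020830 it held 76.3%, 100%, 61.8% and 100% in bud, against 0, 11.5%, 0 and 0 in flesh. In these 4 genes of highest score every bud library lay above every flesh library.

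Most of the set was not separated in this way. The 4 bud libraries lay above the 4 flesh libraries in 47 of the 150 genes, and the tissues overlapped in the rest. Among all eligible genes, 5.44% were separated with bud above flesh at week 0. The range of the bud transcript over the 4 libraries of a group had a median of 34.4 percentage points in bud and 50.7 in flesh, against 11 and 10.3 in the eligible genes outside the set. The bud transcript held 5% or less in 1 library and 95% or more in another library of the same group in 13 genes in bud and in 33 genes in flesh. Among the eligible genes outside the set it did so in 1.26% in bud and 3.03% in flesh. In the set, the bud transcript was listed at 0 in all 4 flesh libraries for 26 genes. It held 100% in all 4 bud libraries for 7. Both tissues had a range under 20 percentage points in 7 genes.

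**Figure D1:**
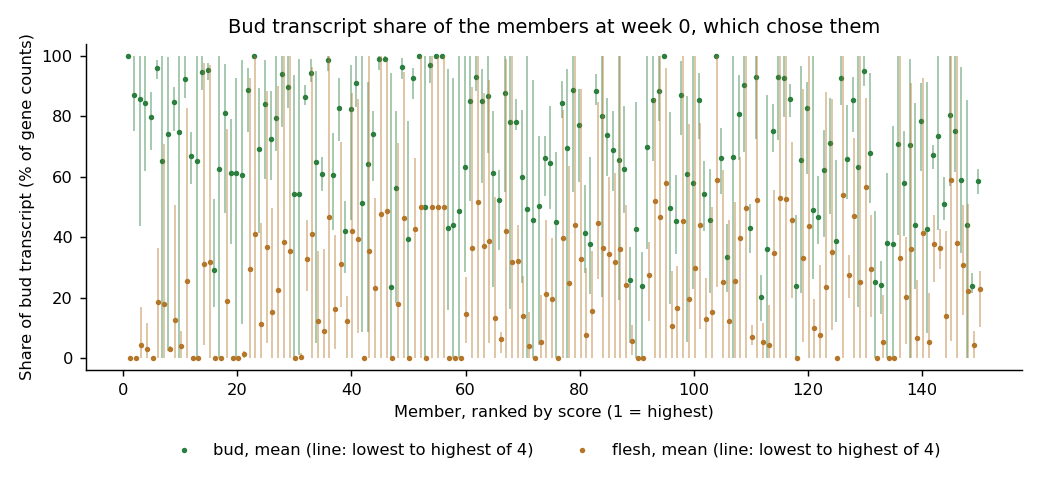
Share of the bud transcript at week 0 (y axis, percent of the gene's counts) for the 150 genes ranked by score (x axis), with the mean of 4 libraries as a point and a line from the lowest to the highest library, for bud (green) and flesh (brown). The means are apart because they chose the genes, while the lines are apart in only 47 of the 150 genes.

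Scores in the set ran from 100 to 36.2 percentage points with a median of 45. The lowest belonged to Soltu.DM.08G008500 and Soltu.DM.04G010620, at 36.4 and 36.2. The genes just outside the set were Soltu.DM.04G020260 and Soltu.DM.08G015680, both at 36, so the limit falls in a continuous range. Soltu.DM.04G010620 was among the genes with little spread, with a bud transcript at 57.7%, 54.4%, 62.6% and 60.2% in bud and at 28.6%, 27.9%, 10.3% and 24.3% in flesh. The transcript with the largest share differed between the tissues in 120 of the 150 genes, and in 5.83% of the eligible genes outside the set. The shares used here are those that gave the scores, so the rule itself favours such genes in the set. The gap between the set and the other eligible genes is therefore a description of the choice and not a separate result.

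The rule required 2 or more transcripts and took the largest change of any of them, so their number could affect the score. It did not use their numbering. The set held 53 genes with 2 transcripts, 48 with 3 and 49 with 4 or more, up to 19. Genes with 2 transcripts made up 35.3% of the set and 58.8% of the other eligible genes. The bud transcript was the one numbered 1 in its gene in 61 genes, and the transcript most raised in flesh was that one in 57. Neither was in 32 genes, so the numbering did not follow 1 of the tissues. The genes of the set had fewer counts than the other eligible genes, with a median of 1037 against 1388 in bud and 416 against 809 in flesh at week 0. In flesh, 68 of the 150 had under 400 counts, and 31 had at least 1000 in both tissues.

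The libraries held 17.0 M to 51.9 M counts in the transcript table, with a median of 31.8 M. At week 0 the totals were 42.7 M to 45.5 M in bud and 25.5 M to 29.9 M in flesh, without overlap. A measure that does not use the set was taken from the other 4063 eligible genes, as the percentage of them in which 1 transcript held at least 95% of the gene's counts. At week 0 it was 44.8% to 47.4% in the bud libraries and 48.4% to 58% in the flesh libraries, without overlap. The mean bud transcript share over the set was 67.1% to 69.6% in those bud libraries and 12.9% to 31.5% in the flesh libraries, with the lowest value in the flesh library of the highest one-transcript percentage. The measure did not keep this order. At week 6 it was 50.6% ± 0.441 in control bud and 44.8% ± 1.32 in control flesh (mean ± SD, n = 4), and at week 9 it was 53.8% ± 1.27 and 46.7% ± 0.780. In those weeks the mean bud transcript share over the set was also in the other order, at 46.6% ± 1.70 in bud and 50.9% ± 2.85 in flesh at week 6 and at 43.6% ± 1.44 and 50.04% ± 2.30 at week 9. The part of this library-wide measure in the tissue differences below was not tested. Library 1 of the buds 2 weeks after ethylene stood apart, with 74.3% of the other eligible genes on 1 transcript against 41.2% to 46.1% in the rest of its group, and with a mean bud transcript share of 26% against 53.6% to 58.9%.

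**Figure D2:**
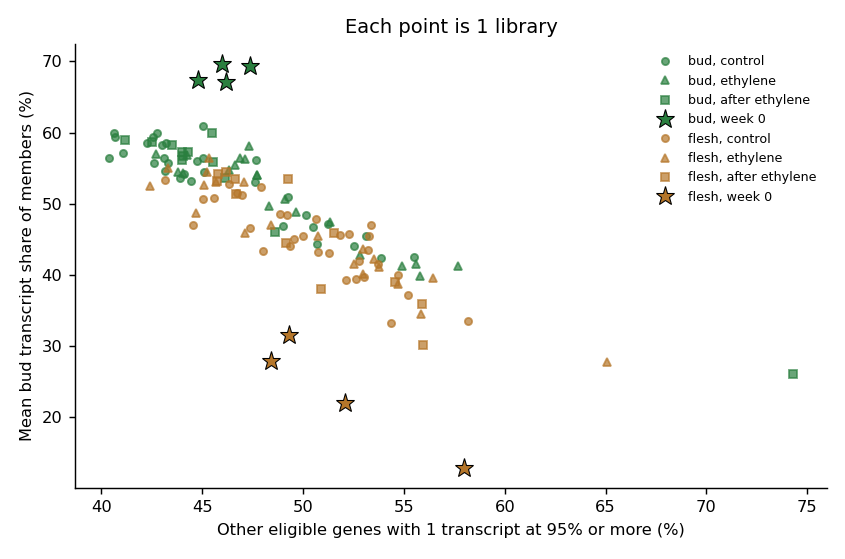
Each point is 1 library: x axis, percentage of the eligible genes outside the set in which 1 transcript held at least 95% of the counts, and y axis, mean share of the bud transcript over the 150 genes in percent. Libraries with a higher x value lie lower on the y axis in both tissues, the week 0 libraries (stars) lie above all others in bud and mostly below them in flesh, where later libraries reach down to 27.7% and week 0 runs up to 31.5%, and 1 bud library after ethylene lies apart at 74.3%.

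The first question was whether bud and flesh differed in the same way in weeks that did not choose the genes. Over control weeks 3 to 18, the bud transcript held more of the gene's counts in bud than in flesh in 80.7% of the 150 genes, with a median difference of 6.93 percentage points, against 42.6 at week 0. The difference reached 20 percentage points in 24 genes, lay within 10 of 0 in 87 and was negative in 29. Among the other eligible genes, whose bud transcript was defined in the same way, 54.4% were positive and the median was 0.18. Transcript usage was tested with edgeR's quasi-likelihood fit and its F-test per gene that all transcripts change by the same factor, with Benjamini-Hochberg adjustment over 5888 genes and a threshold of 0.05. It called 30 of the 150 genes, or 20%, against 17.7% of all genes tested, so in this test the share called was near that of all genes. With DESeq2 72 of the 150 were called, against 33.5% of all genes, and with limma voom 58, against 39.5%. Of the 30, the bud transcript was higher in bud in 26 and lower in 4. Among all 642 eligible genes called by the usage test, it was higher in 447 and lower in 194. The adjusted p of this test, here and below, belongs to the gene as a whole and not to its bud transcript. On simulated counts the usage test made more false calls than its nominal rate. When the bud transcript alone was tested, an alternative added after the data were seen, 14 of the 150 genes passed in this comparison, against 4.7% of the eligible genes whose bud transcript could be tested.

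A second test, limma on the shares themselves with transcripts combined per gene, was added after the data were seen. It called 25 of the 148 genes of the set it could test, 24 of them higher in bud, against 10.7% of all 5180 genes tested. The 2 tests called 17 genes in common. In the share test a difference is weighed by its spread over libraries whatever the depth, and shares that sit at 0 or 100% in single libraries depart from the normal errors it assumes.

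**Figure D3:**
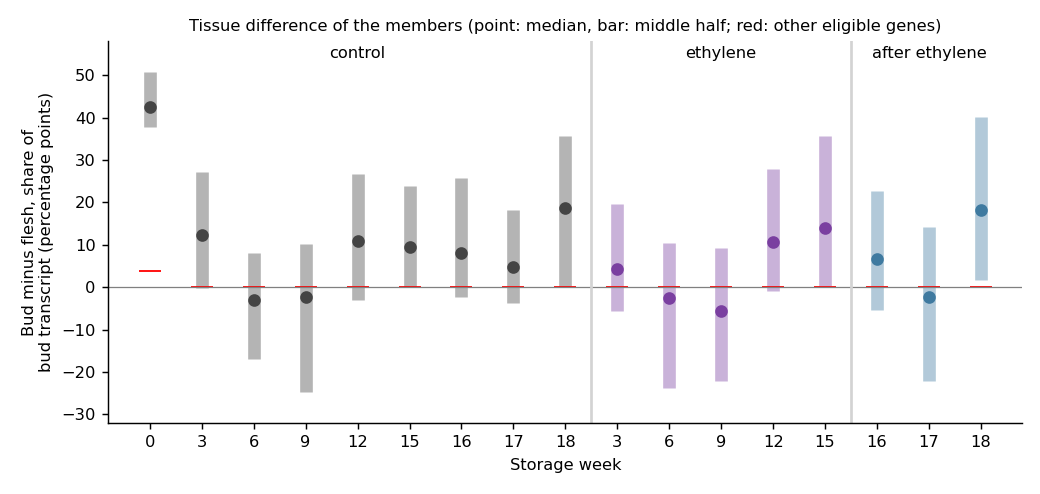
Bud minus flesh in the share of the bud transcript (y axis, percentage points) for each storage week (x axis) of control, ethylene and after-ethylene tubers, with the median over the 150 genes as a point, the range from the lower to the upper quartile as a bar, and the median over the other eligible genes as a red dash. The median is 42.6 at week 0, whose libraries chose the genes, and between −3.02 and 18.7 in the other control weeks.

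The size and even the sign of the difference varied between weeks. The medians over the set at weeks 3, 6, 9 and 12 were 12.4, −3.02, −2.30 and 11 percentage points. Those at weeks 15 to 18 were 9.40, 8.06, 4.71 and 18.7. The share was lower in bud than in flesh in 38 and 37 of the 150 genes in weeks 3 and 18, and in 82 and 83 in weeks 6 and 9. Weeks 6 and 9, with medians under 0, are the control weeks named above in which the library-wide measure was higher in bud. The usage test called 6 genes of the set at week 3, where 2.84% of all genes were called. In weeks 6, 9 and 12 it called 4 (3.07% of all genes), 13 (5.43%) and 11 (7.05%). In weeks 15 to 18 it called 10 (6.45%), 10 (4.77%), 4 (4.89%) and 21 (12.2%). The share test called 3 genes of the set at week 3 (1.29% of all genes), 5 in week 6 (1.35%), 3 in week 9 (1.29%) and 8 in week 12 (2.1%). In weeks 15 to 18 it called 6 (2.07%), 5 (2.12%), 1 (1.51%) and 14 (4.15%). At week 18 the bud transcript was higher in bud in 17 of the 21, and at week 9 it was lower in bud in 10 of the 13.

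All bud libraries lay above all flesh libraries in 13 genes of the set at week 3, where 4.13% of eligible genes did so, and in 3 genes at week 6 (3.32%) and 3 at week 9 (3.21%). In weeks 12 and 15 the counts were 14 (3.35%) and 9 (4.13%), and in weeks 16 to 18 they were 14 (4.92%), 4 (3.63%) and 14 (4.37%). The bud transcript was higher in bud in all 8 control weeks after week 0 in 8 genes of the set, or 5.33%, and in 2.78% of the other eligible genes.

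**Figure D4:**
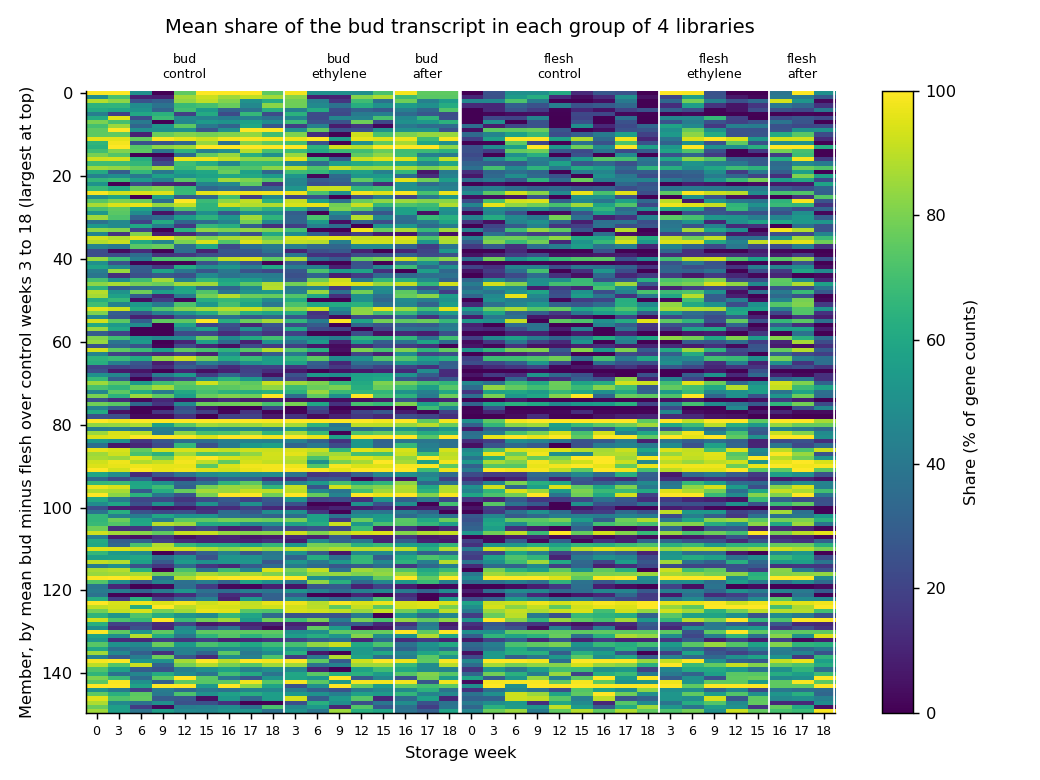
Mean share of the bud transcript (colour, percent of the gene's counts) for the 150 genes (rows, ordered by the mean bud minus flesh difference over control weeks 3 to 18) in the 34 groups of 4 libraries (columns, by tissue, treatment and storage week). The flesh column of week 0 is darker than the flesh columns of later weeks in most rows, and the rows at the top keep a lighter bud than flesh in most weeks.

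Soltu.DM.10G002820 again had the largest difference among the genes called, at 43.6 percentage points (SE 9.63, adjusted p = 1.58e-05 in edgeR's usage test and 0.000596 in the share test), although its bud transcript alone did not pass in edgeR (adjusted p = 1). Its bud transcript held 100% in every bud library at weeks 3, 15, 16 and 17, and was listed at 0 in every bud library at week 9. In flesh it was listed at 0 in every library at week 18 and at 100% in 2 of 4 libraries at weeks 6 and 9. Within a group its libraries thus sat at either end, and the sign was positive in 6 of the 8 weeks. Soltu.DM.08G026660, second by score, was higher in bud by 0.82 percentage points only (SE 8.62, adjusted p = 1 in edgeR's usage test). Its bud transcript was listed at 0 in all 4 bud libraries at week 9 and in all 4 flesh libraries at week 18, when it held 76% to 100% in bud. In Soltu.DM.02G005200 the mean difference was −3.36 percentage points (SE 7.89, adjusted p = 0.665 in edgeR's usage test), and in Soltu.DM.03G020830 it was 9.11 (SE 7.11, adjusted p = 1).

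Soltu.DM.06G023320 had the second largest difference among the genes called, at 38.1 percentage points (SE 6.02, adjusted p = 2.93e-06 in edgeR's usage test and 1.66e-06 in the share test), and its bud transcript alone did not pass in edgeR either (adjusted p = 0.286). Without replicate 1 of every group the difference was 41.4 percentage points and the gene no longer passed the usage test (adjusted p = 1). Its bud transcript held 84.5%, 89%, 84.1% and 85.3% in bud at week 12 and 89.7%, 89.9%, 88.2% and 93.6% at week 17. In flesh it held 49.9%, 0, 0 and 0 at week 12, and 85.2%, 100%, 0 and 14.4% at week 17, so the tissues were apart at the first of these weeks and overlapped at the second. The difference was in the other direction at weeks 6 and 9, where bud held 9.37% ± 11.1 and 8.36% ± 16.7 against 54.6% ± 31.3 and 62.2% ± 38 in flesh (mean ± SD, n = 4). The smallest mean differences in the set were −0.17 percentage points in Soltu.DM.06G009880 and 0.35 in Soltu.DM.12G027310, with standard errors of 5.65 and 5.42. At week 0 the bud transcript of Soltu.DM.06G009880 held 74.3%, 0, 0 and 76.8% in bud and was listed at 0 in flesh, and at week 6 it was listed at 0 in all bud libraries and held 0, 0, 54.3% and 73.8% in flesh.

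In 4 genes of the set the bud transcript was higher in bud in all 16 pairs of groups outside week 0. They are named after their values were seen. The same was not counted over the other eligible genes, so this count has no background. The 4 genes were Soltu.DM.10G023760, Soltu.DM.02G018260, Soltu.DM.04G002740 and Soltu.DM.01G042970. In Soltu.DM.01G042970 the bud transcript Soltu.DM.01G042970.3 held 69.6%, 70.7%, 62.4% and 66.3% in bud and 35.3%, 42.6%, 25.2% and 47.3% in flesh at week 0. At week 6 it held 71%, 68.8%, 82.8% and 85.4% in bud against 37.4%, 35.8%, 35.1% and 36.3% in flesh, and the tissues did not overlap. Over control weeks 3 to 18 it was 20.4 percentage points higher in bud (SE 1.60, from 4.31 to 49.5 by week), with an adjusted p of 0.00042 in edgeR's usage test and 9.67e-20 in the share test. The gene had 601 to 4960 counts per library, more than most of the set. In Soltu.DM.10G023760 the difference was 35.3 percentage points (SE 8.03, adjusted p = 1.37e-08 in edgeR's usage test and 2.07e-05 in the share test), and in Soltu.DM.04G002740 it was 35.1 (SE 7.68, adjusted p = 2.38e-05 and 0.000512). In Soltu.DM.02G018260 the difference of 22.8 (SE 6.67) passed the share test (adjusted p = 0.0163) and not edgeR's usage test (adjusted p = 0.126).

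**Figure D5:**
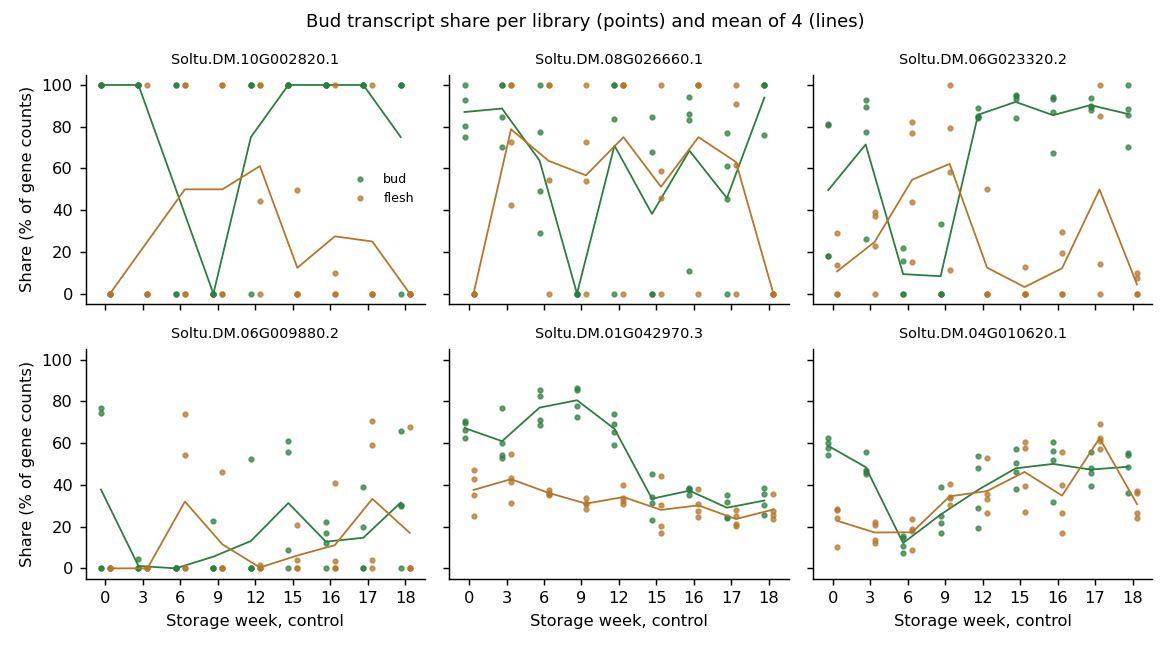
Share of the bud transcript (y axis, percent of the gene's counts) in each control library (points) and the mean of 4 (lines) by storage week (x axis), in bud (green) and flesh (brown), for 6 genes named in the text. Libraries of 1 group often sit near 0 and near 100% in Soltu.DM.10G002820 and Soltu.DM.08G026660, while those of Soltu.DM.01G042970 and Soltu.DM.04G010620 stay close together and change with the week.

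Under ethylene, the mean over weeks 3 to 15 was lower in bud than in flesh in 42 of the 150 genes, with a median difference of 5.13 percentage points. The usage test called 22 of them, against 12.4% of all genes tested, with 12 higher and 10 lower in bud, and the share test called 8, all higher in bud, against 3.53%. The medians for weeks 3, 6, 9, 12 and 15 were 4.20, −2.44, −5.61, 10.7 and 13.9 percentage points, so they were under 0 in the same weeks as in control tubers. After ethylene, over weeks 16 to 18, 44 genes were lower in bud, with a median of 7.45 percentage points. The usage test called 18, with 15% called among all genes, and the share test called 8 (3.46%). The week 17 pair, which includes the bud library that stood apart, had a median of −2.42 percentage points, and of 2.04 without that library, so its sign rests on 1 library. The medians at weeks 16 and 18 were 6.61 and 18.2. Without that library the usage test called 19 genes after ethylene, against 14.6% of all genes tested.

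The second question was whether the balance of transcripts changed with storage. Control weeks 15 to 18 were compared with weeks 3 and 6, leaving out week 0. In bud the usage test called 8 genes of the set, against 6.52% of all genes tested, with the bud transcript higher late in storage in 6 and lower in 2. In flesh it called 26, against 15.3%, with the bud transcript higher in 10, lower in 15 and at no difference in 1. The share test called 5 genes in bud and 7 in flesh, against 0.946% and 3.07% of all genes.

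The genes named next were called as a whole by the usage test, and the change given is that of the bud transcript. Tested alone in edgeR, the bud transcript passed in Soltu.DM.01G027320 and Soltu.DM.12G021430 in bud (adjusted p = 0.0418 and 0.0192) and in Soltu.DM.03G003180 in flesh (4.6e-05), and in no other of the 8 genes taken by the naming rule for storage. With 1 replicate number left out of all groups in turn, only Soltu.DM.06G023320 in bud and Soltu.DM.03G003180 in flesh passed edgeR's usage test each time. The largest adjusted p of this kind was 0.056 for Soltu.DM.01G027320, 0.0628 for Soltu.DM.10G018250, 0.123 for Soltu.DM.01G042970 and 0.191 for Soltu.DM.04G010620. That of Soltu.DM.06G023320 was 48 percentage points higher late in storage in bud (SE 10.4, adjusted p = 0.000213 in edgeR's usage test and 0.00611 in the share test). Its early weeks were far apart, with 26.2%, 92.9%, 89.2% and 77.5% at week 3 and 0, 21.8%, 0 and 15.6% at week 6. At week 15 it held 93.2%, 95%, 84.4% and 94.9%, above all of week 6 and overlapping week 3. Its whole-gene level rose as well in this comparison, by a log2 fold change of 1.17 (SE 0.13, adjusted p = 2.37e-14 in edgeR). The bud transcript of Soltu.DM.01G027320 rose by 34.1 percentage points (SE 11.4, adjusted p = 0.007 in edgeR's usage test and 0.158 in the share test). It was listed at 0 in all 4 bud libraries at week 6 and held 76.8%, 49.5%, 55.6% and 75.7% at week 16. Week 3 and week 18 were alike, at 29.3% ± 28.1 and 29.3% ± 26.8 (mean ± SD, n = 4).

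The bud transcript of Soltu.DM.01G042970 fell in bud by 35.9 percentage points in the share test (SE 2.77, adjusted p = 0.0172 in edgeR's usage test and 3.76e-19 in the share test). It held 68.8% to 85.4% in bud at week 6, 23.1% to 45% at week 15 and 25.7% to 38.4% at week 18. Its means for weeks 0, 3, 6, 9 and 12 were 67.2% ± 3.72, 60.9% ± 11, 77% ± 8.29, 80.6% ± 6.71 and 66.8% ± 6.17 (mean ± SD, n = 4). Those for weeks 15 to 18 were 33.3% ± 9.06, 37.2% ± 1.46, 29% ± 5.47 and 32.5% ± 5.67. The late weeks thus lay below all earlier weeks in bud without overlap between libraries, while the whole-gene level did not pass the test (log2 fold change 0.09, SE 0.09, adjusted p = 0.44 in edgeR). In flesh it was 42.7% ± 9.65 at week 3 and 28.2% ± 5.31 at week 18, and the change over storage was −11.9 percentage points (SE 2.77, adjusted p = 0.664 in edgeR's usage test and 0.01 in the share test). The bud transcript of Soltu.DM.12G021430 was 32.3 percentage points lower late in storage in bud (SE 18.9). The gene passed edgeR's usage test (adjusted p = 0.0109), but not the share test (adjusted p = 0.902). At week 3 its bud transcript held 95.8%, 38.8%, 0 and 51.7%. Without replicate 1 the change was −19.5 percentage points, and the gene did not pass edgeR's usage test without replicate 1 or without replicate 2 (adjusted p = 0.0667 and 0.082).

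In flesh, the bud transcript of Soltu.DM.04G010620 rose by 26.3 percentage points in the share test (SE 4.24, adjusted p = 0.00478 in edgeR's usage test and 4.71e-08 in the share test). It held 13.8%, 22%, 20.9% and 12.1% at week 3 and 57%, 69.1%, 62.4% and 61% at week 17, without overlap, and 30.8% ± 6.55 at week 18. In bud the same transcript stood at 48.5% ± 4.83, 12.1% ± 3.93 and 47.9% ± 8.07 in weeks 3, 6 and 15. The late weeks were 18.2 percentage points above weeks 3 and 6 (adjusted p = 0.0819 in edgeR's usage test and 3.82e-05 in the share test). The bud transcript of Soltu.DM.11G003010 was 41.5 percentage points higher late in storage in flesh (SE 18.6, adjusted p = 0.0178 in edgeR's usage test and 0.231 in the share test), and held 100% in all 4 flesh libraries at weeks 16 and 18. With 1 replicate number left out in turn, the gene passed edgeR's usage test in none of the 4 fits, at adjusted p from 0.0538 to 0.244. At week 17 it held 7.96%, 84.7%, 100% and 25.2%, near its mean of 52.4% ± 55.1 at week 6. Those of Soltu.DM.10G018250 and Soltu.DM.03G003180 were lower late in storage in flesh, at −61.1 percentage points (SE 20.8, adjusted p = 0.0354 in edgeR's usage test) and −48.4 (SE 14.6, adjusted p = 8.46e-06). Their share-test p is not given here. In flesh, that of Soltu.DM.10G018250 held 100%, 0, 100% and 100% at week 3 and 100%, 100%, 100% and 0 at week 6. It was listed at 0 in all 4 flesh libraries at week 15 and held 7.16%, 0, 100% and 0 at week 18. Libraries of 1 group thus sat at either end. In Soltu.DM.03G003180 the bud transcript was listed at 0 in all 4 flesh libraries at weeks 12, 15 and 18, after 91.6%, 70.3%, 38.6% and 86.2% at week 6. At week 17 it held 11.8%, 67.9%, 85.8% and 0, with a mean of 41.4% against 47.6% at week 3.

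The difference between these storage changes in bud and in flesh was tested as an interaction. The usage test called 11 genes of the set, against 6.01% of all genes tested, and the share test called 5, against 0.405%. Both tests called Soltu.DM.06G023320 and Soltu.DM.06G019350, which are named after their values were seen. In Soltu.DM.06G023320 the change was 70.3 percentage points greater in bud than in flesh (SE 14.7, adjusted p = 0.00198 in edgeR's usage test and 0.00737 in the share test). In Soltu.DM.06G019350 it was 46.6 greater (SE 10.8, adjusted p = 0.0246 and 0.0282), and without replicate 1 the gene did not pass edgeR's usage test (adjusted p = 0.23). In the latter the bud transcript held 37.6%, 43.9%, 35.5% and 42.6% in flesh at week 3 and was listed at 0 in all 4 flesh libraries at week 16, when it held 43.5%, 24.6%, 44.8% and 34.7% in bud. The interaction ranged from 28.9 to 57.6 percentage points over the late weeks. The change was also in the other direction in Soltu.DM.01G042970, at −24.0 percentage points (SE 3.92, adjusted p = 0.277 in edgeR's usage test and 0.000124 in the share test).

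The third question was the effect of ethylene on the balance of transcripts, taken as the mean over weeks 3 to 15 of ethylene against control of the same week. In bud the usage test called 7 genes of the set, against 3.21% of all genes tested, and in flesh 10, against 4.6%. The share test called 1, against 0.135% of all genes, and 0, against 0.0579%. The median change of the bud transcript over the set was −0.44 percentage points in bud and −0.08 in flesh. The ethylene effect differed between the tissues in 7 genes by the usage test (2.14% of all genes) and in 0 by the share test, which called 2 of all 5180 genes (0.0386%).

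The bud transcript of Soltu.DM.08G004330 was 25.4 percentage points higher in bud under ethylene (SE 9.41), from 5.23 to 74.5 by week. The gene passed edgeR's usage test (adjusted p = 0.00368), but not the share test (adjusted p = 0.856), and its bud transcript alone did not pass in edgeR (adjusted p = 1). Without replicate 1 or 4 the gene did not pass edgeR's usage test (adjusted p = 1 in both). At week 12, the week of the greatest difference, it held 100% in all 4 ethylene buds and 32%, 41.8%, 14.6% and 13.7% in control buds, without overlap. In flesh that of Soltu.DM.06G009880 differed by 10.9 percentage points (SE 7.14, adjusted p = 0.0423 in edgeR's usage test) and that of Soltu.DM.04G002740 by −5.50 (SE 9.71, adjusted p = 0.0215), both within 2 standard errors and with adjusted p of 0.872 and 1 in the share test. With 1 replicate number left out in turn, the first ran from 3.42 to 19.6 percentage points and passed edgeR's usage test in 1 of the 4 fits. The second ran from −7.55 to −1.03 and did not pass without replicate 3 (adjusted p = 0.479). The gene called by the share test in bud was Soltu.DM.01G042970, at 10.3 percentage points over the 5 weeks (SE 2.03, adjusted p = 0.00539, against 0.967 in edgeR's usage test). At week 15 its bud transcript held 73.5%, 73.5%, 69.2% and 60.5% in ethylene buds and 23.1%, 34.1%, 31.2% and 45% in control buds, a difference of 35.8 percentage points without overlap. At week 3 the means were 52.2% ± 3.96 and 60.9% ± 11, so the sign was not the same in every week.

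After ethylene, the mean over weeks 16 to 18 against control of the same week gave 3 genes of the set in bud by the usage test, against 2.68% of all genes tested, and 15 in flesh, against 8.19%. The share test called 1, against 0.135%, and 0, against 0.154%. The 1 gene was again Soltu.DM.01G042970, at 14.5 percentage points (SE 2.62, adjusted p = 0.00168 in the share test and 1 in edgeR's usage test). At week 18 its bud transcript held 43.2%, 44.2%, 44.6% and 43.7% in buds 3 weeks after ethylene and 30.2%, 25.7%, 35.7% and 38.4% in control buds, without overlap. The bud transcript of Soltu.DM.12G021430 was 32.7 percentage points higher in bud after ethylene (SE 17.8). The gene passed edgeR's usage test (adjusted p = 0.0176), but not the share test (adjusted p = 0.792). With 1 replicate number left out in turn the difference ran from 10.6 to 49.8 percentage points, with adjusted p up to 1 in edgeR's usage test. In flesh those of Soltu.DM.10G002820 and Soltu.DM.03G003180 were 45.3 and 34.4 percentage points higher, in genes called by edgeR's usage test (adjusted p = 0.00899 and 0.012), and those of Soltu.DM.01G050230 and Soltu.DM.02G019400 differed by −26.6 and −21.6 (adjusted p = 0.0384 and 0.0195). None of the 4 passed the share test, where their adjusted p ranged from 0.263 to 0.641, or edgeR's test of the bud transcript alone, where it ranged from 0.0712 to 1. Each of the 4 lost its call in edgeR's usage test without at least 1 replicate number, with a largest adjusted p of 0.102, 0.757, 0.134 and 0.132 in the order named, and the change of Soltu.DM.10G002820 was 28.2 percentage points without replicate 2. In Soltu.DM.03G003180 the bud transcript held 93.2%, 87.4%, 100% and 93% in flesh 1 week after ethylene and 9.26%, 5.26%, 0 and 0 in control flesh of week 16. The later weeks were closer, at 52.2% ± 42 against 41.4% ± 41.9 in week 17 and 2.53% ± 5.05 against 0 in week 18 (mean ± SD, n = 4).

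Whole-gene counts are a measure apart from the shares and were tested over the same weeks with edgeR on 24835 genes. Over control weeks 3 to 18, 72 of the 150 genes were higher in bud and 52 lower, against 36.6% and 29.8% of all genes tested and 30.6% and 52.01% of the eligible genes. The median log2 fold change was 0.09 over the set, 0.15 over all genes and −0.12 over the eligible genes. Late in storage, 79 were higher and 32 lower in bud, against 29.7% and 26.1% of all genes and 35.3% and 39.1% of eligible genes. In flesh 62 were higher and 39 lower, against 22.4% and 25.4% of all genes and 37.1% and 32.4% of eligible genes. Under ethylene, 18 were higher and 14 lower in bud, against 13% and 9% of all genes and 18.3% and 14.2% of eligible genes. In flesh 7 were higher and 11 lower, against 5.94% and 4.58% of all genes and 6.86% and 9.42% of eligible genes. In bulk tissue, a change in the cells present and a change within cells cannot be told apart.

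The genes of the set highest in bud by this measure were Soltu.DM.02G007590 and Soltu.DM.08G023400, with log2 fold changes of 2.51 (SE 0.19, adjusted p = 1.13e-23) and 1.48 (SE 0.07, adjusted p = 7.35e-40) in edgeR. In CPM, counts scaled to equal library size, Soltu.DM.02G007590 stood at 329 ± 83.2 in bud and 31 ± 18.3 in flesh at week 0 and at 22.1 ± 2.40 and 3.32 ± 0.650 at week 18 (mean ± SD, n = 4). The lowest were Soltu.DM.04G002740 and Soltu.DM.06G008230, with −1.96 (SE 0.13, adjusted p = 4.3e-28) and −1.30 (SE 0.05, adjusted p = 3.22e-48). Soltu.DM.06G008230 stood at 17.0 ± 0.983 CPM in bud and 32.4 ± 3.43 in flesh at week 18. In Soltu.DM.04G002740 the whole gene was therefore lower in bud while the share of Soltu.DM.04G002740.2 was higher there, with 84.7%, 86.2%, 67.3% and 1.61% in bud against 9.84%, 2.61%, 0 and 0.718% in flesh at week 6.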

How the data were processed

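Per the labels' protocols, RNA for sequencing was isolated with a Qiagen RNeasy kit for plants. StringTie, HISAT2, Trimmomatic and SAMtools are named in the submitters' processing notes, with no version. The build and annotation used were not given in the sources used here. Both deposited tables, per gene and per transcript, hold whole numbers with library totals that differ, so the authors' values were taken as raw counts. How reads common to transcripts of a gene, to near-identical genes or to opposite strands were assigned is not given, and the share of a transcript rests on that assignment. A transcript listed at 0 may be a failed estimate.

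From the deposited counts, 1 of 44851 transcript rows, which has blank cells, was left out, as was a gene row without an ID that holds 1.76% to 2.95% of a library. CPM used trimmed mean of M-values scaling. Usage was tested in R 4.3.3 with edgeR 4.0.16 (glmQLFit and diffSpliceDGE) with edgeR's expression filter (at least 10 counts, 15 in total), on all 136 libraries in 34 groups (102 residual degrees of freedom), over 19 comparisons. All 150 genes passed this filter. The same libraries served the 5 comparisons of whole-gene counts with edgeR. The share test used limma 3.58.1 on shares and combined transcripts per gene by Simes' method. It was added after the data were seen and gives the standard errors printed for share differences. P-values per gene are Benjamini-Hochberg adjusted over all genes tested, and those of the bud transcript alone over all transcripts tested. Both edgeR tests were tested on simulated counts and recovered the changed genes, and the usage test made more false calls there than its nominal rate. The simulation drew each transcript independently and held no genes made to trade transcripts between libraries of a group. It therefore does not show how the usage test behaves in such genes.

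The genes, the groups of weeks and the rule for named genes were chosen with earlier results of these data known. The rule takes the 4 highest and 2 lowest scores, the 2 genes just outside, the 2 largest called and the 2 smallest differences between the tissues over control weeks 3 to 18, and up to 2 genes per direction of each storage, ethylene and after-ethylene comparison with the same sign in every week. For whole genes it takes the 2 highest and 2 lowest in bud. Other genes were named after their values were seen, as stated.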

Additional observations from a re-analysis of the deposited data

Results flagged for a closer look

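The difference between the storage changes in bud and in flesh passed edgeR's usage test in 11 genes of the set, against 6.01% of all genes tested, and the difference between the ethylene effects of the tissues passed it in 7, against 2.14%. The share test called 5 and 0 of the set in these comparisons.

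In the 2 library measures, single libraries lay far from the other 3 of their group in 6 of 68 sets of 4 values, where chance gives about 1 in 20. In library 1 of the buds 2 weeks after ethylene, 74.3% of the other eligible genes were on 1 transcript and the mean bud transcript share was 26.03%. Library 4 of the control buds at week 18 had 49.2% of the other eligible genes on 1 transcript, and so did library 1 of the flesh 2 weeks after ethylene, also at 49.2%. The mean bud transcript share was 39.8% in library 2 of the ethylene buds at week 9 and 46.6% in library 4 of the control flesh at week 9. The week 0 shares of the genes of highest score chose those genes, so single libraries that lay apart there are given as a description only. At week 0, Soltu.DM.02G005200 had 1 bud library at 43.7% beside 3 at 100% and 1 flesh library at 16.9% beside 3 at 0, and Soltu.DM.03G020830 had 1 flesh library at 11.5% beside 3 at 0.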

How the results depend on the processing

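With DESeq2 size factors, without the filter on low counts and without library 1 of the buds 2 weeks after ethylene, every count of genes called stayed within 1.5 times. Under the other settings, only counts more than 1.5 times apart from those of edgeR's usage test, or of its gene test for whole genes, are given here. The percentages in parentheses are the share or range of all genes tested that was called in the same comparisons. With limma voom and diffSplice the counts were 25, 11, 23, 19, 27, 15 and 46 at control weeks 3, 6, 12, 15, 16, 17 and 18 (9.02% to 21%). The others were 58 between the tissues over control weeks 3 to 18 (39.5%), 37 between the tissues under ethylene (23.6%), 31 between the tissues after ethylene (25.5%), 26 for storage in bud (12.6%), 20 for the storage interaction (13.5%), 2 for the ethylene interaction (3.28%) and 7 after ethylene in bud (4.64%). With DESeq2 on the transcript counts they were 72 between the tissues over control weeks 3 to 18 (33.5%), 36 for storage in bud (11.8%), 55 for storage in flesh (23.1%), 48 for ethylene in bud (15.9%) and 60 for ethylene in flesh (18.6%). With Simes' method in place of the F-test they were 1, 1, 6, 5, 4, 2, 1 and 5 at control weeks 3, 6, 9, 12, 15, 16, 17 and 18 (0.0679% to 1.78%). The others were 11 between the tissues after ethylene, 16 for storage in flesh, 5 for the storage interaction, 1 for ethylene in bud, 4 for ethylene in flesh, 4 for the ethylene interaction and 1 after ethylene in bud (0.408% to 7.4%). With the fit limited to the groups compared they were 2, 6, 7, 4, 0 and 12 at control weeks 6, 9, 12, 15, 17 and 18 (2.7% to 6.45%). The others were 22 for storage in bud (12.2%), 5 for ethylene in flesh (4.23%), 9 after ethylene in flesh (6.45%) and 54 for ethylene in bud in whole-gene counts (33.1%). With the bud transcript alone tested, an alternative added after the data were seen, they were 1, 0, 3, 5, 2, 1, 0 and 5 at control weeks 3, 6, 9, 12, 15, 16, 17 and 18 (0.0779% to 1.35% of the eligible genes whose bud transcript could be tested). The others were 14 between the tissues over control weeks 3 to 18 (4.7%), 7 between the tissues under ethylene, 9 between the tissues after ethylene, 3 for storage in bud, 4 for storage in flesh, 2 for the storage interaction, 0 for ethylene in bud, 1 for ethylene in flesh, 2 for the ethylene interaction, 1 after ethylene in bud and 5 after ethylene in flesh (0.312% to 4.41% from the second on). With limma on the shares, also added, they were 3, 3, 6, 5 and 1 at control weeks 3, 9, 15, 16 and 17 (1.29% to 2.12%). The others were 8 between the tissues under ethylene, 8 between the tissues after ethylene, 5 for storage in bud, 7 for storage in flesh, 5 for the storage interaction, 1 for ethylene in bud, 0 for ethylene in flesh, 0 for the ethylene interaction, 1 after ethylene in bud and 0 after ethylene in flesh (0.0386% to 3.53%). With a share change of at least 10 percentage points required they were 17 for storage in flesh, 2 for ethylene in bud and 4 for ethylene in flesh. No share of all genes was taken for this setting. The cause of these shifts was not tested. Leaving out each replicate number in turn gave 21 to 28 genes between the tissues over control weeks 3 to 18 (13.2% to 14.4%). At weeks 3 and 6 it gave 0 to 5 (0.186% to 0.967%) and 0 to 3 (0.389% to 1.02%). At weeks 9 and 12 it gave 4 to 7 (1.1% to 1.59%) and 6 to 11 (2.27% to 3.99%). At weeks 15 and 16 it gave 3 to 9 (1.32% to 3.02%) and 3 to 5 (1.73% to 2.22%). At weeks 17 and 18 it gave 0 to 2 (0.627% to 1.47%) and 8 to 16 (4.39% to 5.14%). It gave 12 to 25 between the tissues under ethylene (7.73% to 10.3%) and 11 to 17 after it (9.73% to 11.7%). For storage it gave 3 to 9 in bud (3.17% to 4.33%), 19 to 28 in flesh (10.9% to 12.7%) and 4 to 11 for their difference (2.93% to 3.6%). For ethylene it gave 3 to 5 in bud (1.56% to 2.43%), 4 to 10 in flesh (2.8% to 3.66%) and 1 to 7 for their difference. After ethylene it gave 0 to 2 in bud and 10 to 15 in flesh. In whole-gene counts it gave 7 to 14 for ethylene in flesh, and the other comparisons stayed within 1.5 times. The share of all genes is not given for these whole-gene counts, the counts after ethylene or the difference of the ethylene effects. Those counts are therefore not set against a background. With 1 replicate number left out at week 0, 60% to 70.7% of the 150 genes were chosen again, and with a mean gene count of at least 1000 required, 20.7%. Of the 20 results for single genes, 18 were past the threshold, and these kept their direction without each replicate number in turn, while 3 of them also passed in all 4 of these fits. The share differences do not depend on the test, the scaling or the block. Both uncalled ones changed sign: Soltu.DM.06G009880 went from −0.17 to 1.55 percentage points without replicate 4, and Soltu.DM.12G027310 from 0.35 to −0.77 and −1.54 without replicates 2 and 4. Of the called ones, 14 no longer passed with the bud transcript alone tested, 12 with limma on the shares, 9 with Simes' method, 5 with voom, 2 with the fit limited to the groups compared, 9, 9, 5 and 8 without replicate 1, 2, 3 and 4, and 1 without library 1 of the buds 2 weeks after ethylene.

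Replicate numbers were not shown to pair the samples: same-numbered bud and flesh libraries of a week had a mean correlation of deviations of 0.109, over 0.1 in 33 of 68 pairs. With the replicate number as a block, the usage test called 30 genes between the tissues over control weeks 3 to 18 (17.7%), 4 for ethylene in bud (2.43%), 6 for ethylene in flesh (4.08%) and 4 for the ethylene interaction (1.89%). The other counts stayed within 1.5 times, and 1 of the 18 single-gene calls was lost with the block, that of Soltu.DM.06G009880 for ethylene in flesh. Depth limits shares of genes with few counts: 68 of the 150 genes had under 400 in flesh at week 0.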

Other observations

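In 1 gene called by both tests the tissues were in the other order after week 0. In Soltu.DM.01G010370, named after its values were seen, the bud transcript held 83.7%, 90.8%, 79.7% and 88.6% in bud and 71.6%, 44.1%, 19.9% and 47.3% in flesh at week 0. Over control weeks 3 to 18 it was 27.8 percentage points lower in bud than in flesh (SE 6.00 in the share test, adjusted p = 0.0221 in edgeR's usage test and 0.00147 in the share test), with the sign of week 0 in 1 of the 8 weeks and a range from −46.2 to 14.9. At week 6, the lowest, it held 68.3%, 19.8%, 49.5% and 17.1% in bud against 92.9%, 87.5%, 70.4% and 88.6% in flesh, and the tissues did not overlap.

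The 7 genes with a range under 20 percentage points within both tissues at week 0 had a median week 0 difference of 35.9 percentage points. Over control weeks 3 to 18 the bud transcript was higher in bud in all 7, with a median difference of 8.91, and in 0 of them it was higher in every one of the 8 weeks. The 31 genes with at least 1000 counts in both tissues had a median week 0 difference of 39.1 percentage points and a median of 5.01 over control weeks 3 to 18, when 23 were higher in bud. These subsets were formed after the data were seen and were not tested.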
